A study of Homo sapiens with 14 samples.

Results

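The effect of deleting the PY motif of MRTFB was measured in 8 of the study's 14 RNA libraries, which form 4 pairs of same-numbered libraries that differ only in that deletion by their labels. Replicates 1 and 2 of MRTFB dN dPY were set against replicates 1 and 2 of MRTFB dN, and replicates 1 and 2 of MRTFB dN Y305A/dPY against replicates 1 and 2 of MRTFB dN Y305A. MRTFB dN dPY is unable to bind G-actin and YAP, MRTFB dN is unable to bind G-actin, MRTFB dN Y305A/dPY is unable to bind G-actin, YAP and SRF, and MRTFB dN Y305A is unable to bind G-actin and SRF. Loss of G-actin binding is thus shared by all 8 libraries, and the Y305A exchange defines the background without SRF binding. Each construct was brought by retrovirus into MCF-10A, an immortalised mammary epithelial cell line of human origin that does not form tumours, and RNA was taken on day 2. The labels do not name the vector behind each MRTFB construct or say whether the replicates were separate cultures, so p-values measure only the spread between these samples. The other 6 libraries, 2 each of YAP 5SA (a hyperactive YAP), the Hygro vector and the Puro vector, entered no comparison of the deletion.

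MRTF proteins are coactivators of SRF: G-actin holds them back, and once free of it they switch on genes of the actin cytoskeleton and contractile apparatus. YAP is the coactivator of the TEAD transcription factors, is restrained by the Hippo kinases and is known for driving growth and division of epithelial cells. PY motifs are short proline- and tyrosine-containing stretches that bind WW domains, of which YAP carries a tandem. The pooled comparison asks which genes depend on the PY motif whether or not MRTFB can bind SRF.

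MKL2, the symbol under which the table lists MRTFB, stood at 286 and 171 FPKM (fragments scaled to transcript length and library size) in MRTFB dN dPY replicates 1 and 2, against 299.5 and 165 FPKM in MRTFB dN. It stood at 610.1 and 343 FPKM in MRTFB dN Y305A/dPY, against 404 and 294 FPKM in MRTFB dN Y305A. The libraries overlap in both backgrounds, and with Y305A the PY-deleted library is the higher one in both pairs. Its mean paired difference was 0.20 on the log2 scale (exact two-sided sign-flip test over the 4 pairs, p = 0.375; with 4 pairs this test cannot reach 0.05). The table holds no counts, so depth was only estimated, relative to Hygro vector replicate 1, from the most frequent ratio of low FPKM values. Over the 8 MRTFB libraries it ran between 0.507 (MRTFB dN dPY replicate 1) and 1.1 (MRTFB dN Y305A/dPY replicate 2), with Hygro vector replicate 1 set to 1. MRTFB dN dPY replicate 1 is empty for 4189 named loci (chromosome 7 after PPIA, and chromosomes 8, 9 and X), which were treated as missing there, so 1710 of the 12191 tested loci rest on 3 pairs. Mammary epithelial identity genes were present in all 8 libraries, with a summed level of 9873 to 56820 FPKM. Of the 6 renal packaging line markers, 5 stayed under 1 FPKM in all 8 libraries. The remaining marker, CDH16, did not pass (0.80, limma adjusted p = 0.17). The summed level of the list was 33.0 and 19.96 FPKM in MRTFB dN dPY against 11.3 and 7.0 FPKM in MRTFB dN, and 0.242 and 0.419 FPKM in MRTFB dN Y305A/dPY against 0.272 and 0.357 FPKM in MRTFB dN Y305A, with 2 markers at 0 in all 8 libraries. Its part in the results was not tested. Of the 8 fibroblast markers 6 and of the 9 endothelial markers 8 stayed under 1 FPKM in all 8 libraries. Their summed levels, which include members that reached 1 FPKM, were 0.850 to 7.34 and 0.925 to 14.8 FPKM. Of the 12 skeletal muscle markers 10 stayed under 1 FPKM, with sums of 0.997 to 6.88 FPKM. Leukocyte markers were higher: 5 of 8 loci stayed under 1 FPKM, and the sums were 334 to 807 FPKM. None of these lists held a call. Few of their loci were tested: 1 renal, 2 fibroblast, 1 endothelial, 2 skeletal muscle, 3 leukocyte and 11 mammary. Over all tested genes 0.50% were called lower and 0.0164% higher, so lists this small would seldom hold a call.

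Differences are given on the log2(FPKM + 1) scale as PY deleted minus PY present, averaged over the pairs, with the SE of a linear model (limma, pair as block) and p-values adjusted by Benjamini and Hochberg over all tested loci at a threshold of 0.05. With the PY motif deleted, 61 of 12191 genes were lower (0.50%) and 2 were higher (0.0164%). The 61 falls lay between -0.52 and -1.81 with a median of -1.03. They held 11 genes of the mitosis list, 2 of the DNA replication list and 1 of the YAP/TEAD target list, and 47 were in none of the lists. At an unadjusted p under 0.05, 1605 genes were lower (13.2%) and 1012 higher (8.30%). Of all tested genes, 2207 were below 0 in every pair (18.1%), 118 were at least 0.5 lower in every pair (0.968%) and 6 were at least 0.5 higher in every pair (0.0492%). The 61 were called on these same pairs, so their own counts only describe them. All 61 were below 0 in every pair and 56 were at least 0.5 lower in every pair. In both backgrounds 53 of them had PY-deleted libraries below the PY-present ones without overlap. Over all 12191 tested genes, 605 had this. The calls rest on the pairing and on all 4 pairs. With the SRF background but no pair in the limma fit, 0 genes were called, and 729 were at an unadjusted p under 0.05, among them 59 of the 61. Without the MRTFB dN dPY and MRTFB dN pair of replicates 1 limma called 17 lower genes, 12 of them among the 61. Without that of replicates 2 it called 0. Without the MRTFB dN Y305A/dPY and MRTFB dN Y305A pair of replicates 1 it called 0. Without that of replicates 2 it called 1, which was not among the 61. In each of the 4 fits that leave out a pair, all 61 were at an unadjusted p under 0.05. Over all 12191 tested genes, 1919 to 2436 were at such a p in these fits. The 61 were chosen on the same pairs, so this count only describes them.

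**Figure D1:**
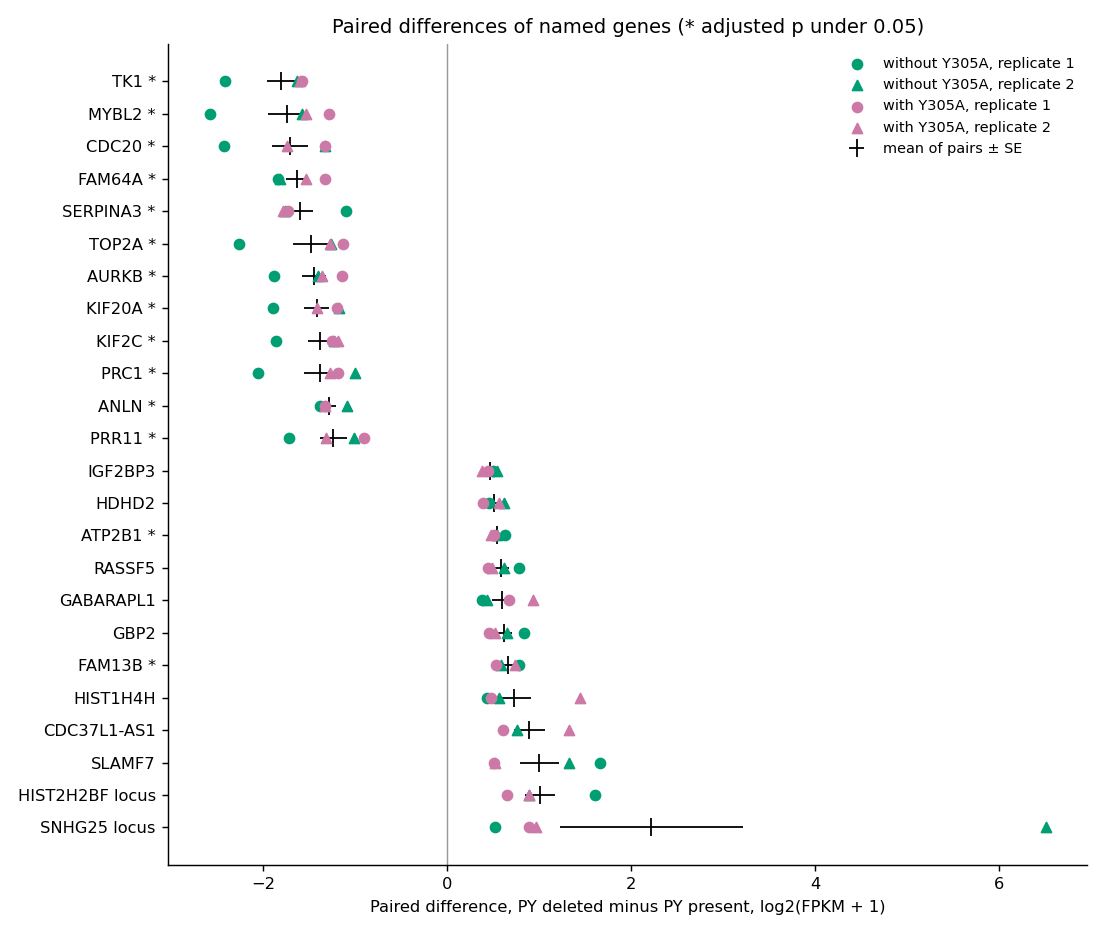
Paired differences in log2(FPKM + 1), PY deleted minus PY present, for the named genes with the largest changes; circles are replicates 1, triangles replicates 2, and the black tick and bar are the mean of the pairs and its SE. The called lower genes at the top of the plot, from TK1 at -1.81 downward, have all 4 pairs left of 0, and FAM13B and ATP2B1 are the called genes right of it.

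Promoters of called lower genes from the mitosis list, and that of CTGF, a YAP/TEAD target treated further on and chosen after its values were seen, are shown because motifs known from cell cycle promoters were more frequent among the lower genes. Each line holds 150 bases up to the RefSeq start of the gene on GRCh38.p14, written 5′ to 3′ on the gene's strand; the deposited table was made on hg19, and no position was carried between the builds. Capitals mark CCAAT (the CCAAT box, bound by NF-Y; ATTGG on the other strand), TTTGAA (a core of the cell cycle homology region, CHR, known from promoters of mitotic genes; TTCAAA on the other strand) and GGAATG (the core of the M-CAT element bound by TEAD factors; CATTCC on the other strand). Neighbouring matches can share bases at their ends.
CDC20 (chr1:43358831-43358980, plus strand): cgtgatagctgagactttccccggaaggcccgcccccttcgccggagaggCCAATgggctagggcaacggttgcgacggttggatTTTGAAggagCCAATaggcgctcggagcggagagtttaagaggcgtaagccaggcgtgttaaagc
TOP2A (chr17:40417897-40418046, minus strand): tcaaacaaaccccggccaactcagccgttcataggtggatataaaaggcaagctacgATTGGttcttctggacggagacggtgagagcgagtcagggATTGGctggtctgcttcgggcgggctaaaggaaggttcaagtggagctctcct
KIF20A (chr5:138178962-138179111, plus strand): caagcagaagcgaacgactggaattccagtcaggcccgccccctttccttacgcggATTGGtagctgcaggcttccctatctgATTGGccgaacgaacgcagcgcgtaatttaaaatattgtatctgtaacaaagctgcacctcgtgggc
CTGF (chr6:131951373-131951522, minus strand): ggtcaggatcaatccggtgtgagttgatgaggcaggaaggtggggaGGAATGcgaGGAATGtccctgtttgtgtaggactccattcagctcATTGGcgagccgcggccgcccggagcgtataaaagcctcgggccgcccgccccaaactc
The stretch of AURKB, also among the promoters examined, held none of these motifs. CDC20 has a CCAAT box on either side of a CHR core, TOP2A and KIF20A have a pair of inverted CCAAT boxes each, and CTGF has a pair of TEAD cores and an inverted CCAAT box. Over the 250 bases before the start, both strands, CCAAT occurred in 33 of the 51 promoters matched to the 61 lower genes (64.7%), in 35.6% of the 9547 promoters of tested genes and in 33% of all 27305 RefSeq promoters. TTTGAA occurred in 15 of the 51 (29.4%), in 8.6% of the promoters of tested genes and in 13.6% of all. GGAATG occurred in 5 of the 51 (9.8%), in 9.52% of those of tested genes and in 11.9% of all. The CArG box bound by SRF occurred in 0 of the 51, in 1.12% of those of tested genes and in 1.14% of all. These matches of letters are a description and show no binding.

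TK1 and MYBL2 had the largest falls among the called genes. TK1, which encodes thymidine kinase of the nucleotide salvage pathway, stood at 6.78 and 13.0 FPKM in MRTFB dN dPY, against 40.7 and 42.5 FPKM in MRTFB dN. In MRTFB dN Y305A/dPY it stood at 14.9 and 13.2 FPKM, against 46.4 and 42.4 FPKM in MRTFB dN Y305A. All 4 PY-deleted libraries were below all 4 PY-present libraries, and TK1 fell 3.51-fold on FPKM + 1 (-1.81 ± 0.16, SE, 4 pairs, limma adjusted p = 0.028). MYBL2, a transcription factor of the cell cycle, stood at 2.17 and 5.40 FPKM in MRTFB dN dPY against 17.9 and 18.2 FPKM in MRTFB dN, and at 3.57 and 4.65 FPKM in MRTFB dN Y305A/dPY against 10.1 and 15.4 FPKM in MRTFB dN Y305A. Again no PY-deleted library reached a PY-present library, with a fall of -1.75 ± 0.21 (limma adjusted p = 0.041). Of the 26 DNA replication genes, 2 were called lower and 0 higher, 23 were below 0 in every pair, and the list's median was -0.75, against a median of 0.00016 over all genes tested. The called members were CDT1, the licensing factor that loads the replicative helicase (-1.03 ± 0.13, limma adjusted p = 0.041), and the helicase subunit MCM7 (-0.94 ± 0.10, 3 pairs, limma adjusted p = 0.043). RRM2, the ribonucleotide reductase subunit with the list's largest mean difference (-1.80), did not pass. Its pairs were -3.16 and -1.53 without Y305A and -1.14 and -1.37 with it (limma adjusted p = 0.075).

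Mitosis genes held more of the calls than any other list. Of the 25 tested, 11 were called lower and 0 higher, 23 were below 0 in every pair, 17 were at least 0.5 lower in every pair, and the median was -1.13. The list was chosen with earlier results of these data known. The summed level of its genes was 94.1 and 148 FPKM in MRTFB dN dPY against 239 and 284 FPKM in MRTFB dN, and 206 and 209 FPKM in MRTFB dN Y305A/dPY against 317 and 442 FPKM in MRTFB dN Y305A. The same sum was 568 and 628 FPKM in YAP 5SA against 147 and 355 FPKM in the Hygro vector, and 345 and 539 FPKM in the Puro vector. In bulk RNA, fewer dividing cells and less of these transcripts per dividing cell cannot be told apart.

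CDC20, an activator of the anaphase-promoting complex, stood at 1.59 and 6.29 FPKM in MRTFB dN dPY against 12.9 and 17.4 FPKM in MRTFB dN, and at 6.70 and 10.4 FPKM in MRTFB dN Y305A/dPY against 18.4 and 37.4 FPKM in MRTFB dN Y305A. All PY-deleted libraries were below all PY-present ones, and CDC20 fell 3.27-fold (-1.71 ± 0.19, limma adjusted p = 0.038). TOP2A, the topoisomerase that untangles chromosomes, stood at 0.884 and 5.23 FPKM in MRTFB dN dPY against 8.07 and 13.97 FPKM in MRTFB dN, and at 2.80 and 5.83 FPKM in MRTFB dN Y305A/dPY against 7.37 and 15.6 FPKM in MRTFB dN Y305A. It did not overlap either, and its fall was -1.49 ± 0.19 (limma adjusted p = 0.043). The pair of replicates 1 without Y305A, which holds the library of lowest relative depth, gave the largest fall for both genes, -2.43 for CDC20 and -2.27 for TOP2A, while their other pairs lay between -1.14 and -1.75. The mitotic kinase gene AURKB fell by 1.45 and KIF20A, a kinesin of cytokinesis, by 1.42 on the log2 scale. The remaining called members were CDCA8, BUB1, FOXM1, CCNB1, CDCA3, CENPF and the locus KIF23,PAQR5, with differences between -0.84 and -1.23. They include a checkpoint kinase (BUB1), a transcription factor of mitotic genes (FOXM1) and cyclin B1 (CCNB1). The cyclin-dependent kinase gene CDK1 (-1.63, limma adjusted p = 0.067), the ubiquitin-conjugating enzyme gene UBE2C (-1.62, limma adjusted p = 0.054) and the proliferation marker MKI67 (-1.36, limma adjusted p = 0.051) had like mean differences and did not pass. The locus of CENPA had the smallest difference of the list (-0.05).

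**Figure D2:**
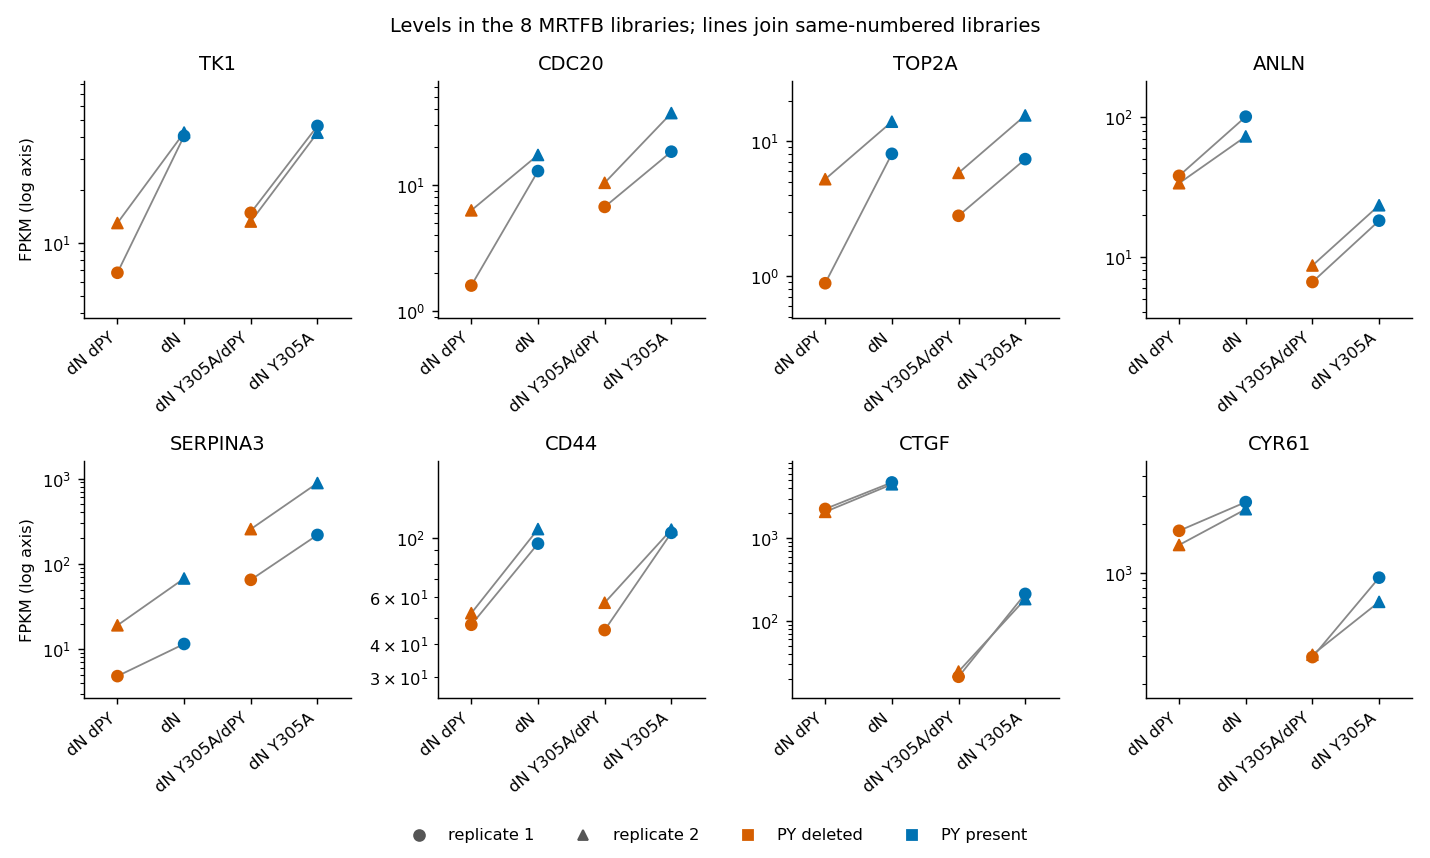
FPKM on log axes of 8 genes in the 8 MRTFB libraries, PY-deleted groups in orange beside their PY-present counterparts in blue; circles are replicates 1, triangles replicates 2, and lines join the libraries of a pair. Every line rises to the right in each panel, and for TK1, CDC20, TOP2A and CD44 the orange points lie below all blue points.

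Further cell division genes outside the lists were among the largest calls. FAM64A stood at 0.361 and 0.691 FPKM in MRTFB dN dPY against 3.88 and 4.99 FPKM in MRTFB dN, and at 1.23 and 1.66 FPKM in MRTFB dN Y305A/dPY against 4.61 and 6.73 FPKM in MRTFB dN Y305A, without overlap (-1.63 ± 0.12, limma adjusted p = 0.021). KIF2C, a kinesin that takes microtubules apart at centromeres, fell by 1.39, PRC1, which bundles microtubules of the central spindle, by 1.38, and PRR11 by 1.24. PRC1 is listed at a second locus of much lower level, which did not pass (-0.18, limma adjusted p = 0.56). ANLN, the scaffold of the cytokinetic ring, stood at 38.1 and 33.7 FPKM in MRTFB dN dPY against 101 and 72.9 FPKM in MRTFB dN, and at 6.61 and 8.67 FPKM in MRTFB dN Y305A/dPY against 18.2 and 23.4 FPKM in MRTFB dN Y305A. Its level was lower in all libraries with Y305A than in all without it. The groups did not overlap within a background, and the difference was -1.24 without Y305A and -1.33 with it (pooled -1.29 ± 0.08, limma adjusted p = 0.021; interaction -0.10 ± 0.14, limma adjusted p = 0.77). BIRC5, which encodes the mitotic protein survivin and is the called member of the YAP/TEAD list, stood at 3.14 and 3.17 FPKM in MRTFB dN dPY against 9.21 and 9.36 FPKM in MRTFB dN, and at 3.32 and 2.64 FPKM in MRTFB dN Y305A/dPY against 6.65 and 8.65 FPKM in MRTFB dN Y305A. All PY-deleted libraries were below all PY-present ones (-1.21 ± 0.12, limma adjusted p = 0.031).

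Several called genes have other known roles. SERPINA3, a secreted inhibitor of serine proteases, stood at 4.84 and 19.0 FPKM in MRTFB dN dPY against 11.5 and 67.4 FPKM in MRTFB dN, and at 65.0 and 255 FPKM in MRTFB dN Y305A/dPY against 218 and 885 FPKM in MRTFB dN Y305A. Its replicates differ so much that the groups overlap in both backgrounds, and only within pairs is it lower throughout, by 1.10 to 1.79 (pooled -1.60 ± 0.13, limma adjusted p = 0.025). The following were chosen after their values were seen. CD44, the hyaluronan receptor, stood at 47.2 and 52.2 FPKM in MRTFB dN dPY against 95.4 and 108 FPKM in MRTFB dN, and at 45.1 and 57.2 FPKM in MRTFB dN Y305A/dPY against 105 and 108 FPKM in MRTFB dN Y305A. All 4 PY-deleted libraries lay below all 4 PY-present ones, at like levels in either background (-1.03 ± 0.08, limma adjusted p = 0.021). FST, which encodes the activin antagonist follistatin, stood at 3.29 and 3.78 FPKM in MRTFB dN dPY against 8.90 and 8.95 FPKM in MRTFB dN, and at 0.680 and 0.273 FPKM in MRTFB dN Y305A/dPY against 3.25 and 1.78 FPKM in MRTFB dN Y305A. It overlapped in neither background (-1.18 ± 0.09, limma adjusted p = 0.021). Other calls were CDH13 (-0.93), a cadherin without a transmembrane domain, COTL1 (-0.72), an actin filament binding protein, RAB32 (-0.63), a small GTPase, SDPR (-0.69), a caveolar coat protein, and the serine and folate enzymes PHGDH (-0.84) and SHMT2 (-0.70).

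The 2 called higher genes were ATP2B1 and FAM13B. ATP2B1, a calcium pump of the plasma membrane, stood at 64.4 and 65.2 FPKM in MRTFB dN dPY against 41.5 and 44.4 FPKM in MRTFB dN, and at 7.84 and 9.10 FPKM in MRTFB dN Y305A/dPY against 5.21 and 6.25 FPKM in MRTFB dN Y305A. It did not overlap within a background (0.54 ± 0.07, limma adjusted p = 0.041). FAM13B stood at 12.3 and 23.3 FPKM in MRTFB dN dPY against 6.73 and 15.2 FPKM in MRTFB dN, where the libraries overlap, and at 3.77 and 6.81 FPKM in MRTFB dN Y305A/dPY against 2.31 and 3.7 FPKM in MRTFB dN Y305A, where they do not (0.66 ± 0.08, limma adjusted p = 0.041). Neither call was made in every alternative fit: without the pair term limma called 0 higher genes. Among 1887 genes that were above 0 in every pair (15.5%), the guanylate-binding protein gene GBP2 (0.61, limma adjusted p = 0.054), the immune receptor gene SLAMF7 (1.00, 0.091), the autophagy gene GABARAPL1 (0.60, 0.075), RASSF5 (0.58, 0.056), HDHD2 (0.50, 0.058), IGF2BP3 (0.46, 0.056), the histone loci HIST2H2BF,HIST2H3D (1.01, 0.060) and HIST1H4H (0.73, 0.11) and CDC37L1-AS1 (0.89, 3 pairs, 0.089) were among the steadiest by their smallest pair and did not pass. The locus SNHG25,SNORA76C,SNORD104 had pairs of 0.52 and 6.51 without Y305A and 0.89 and 0.96 with it, so its mean of 2.22 rests on a single pair.

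Among YAP/TEAD targets BIRC5 was the call, while CTGF and CYR61 had large uncalled differences. Of 33 tested, 13 were below 0 in every pair and 4 above 0 in every pair, with a median of -0.17. The shares over all tested genes were 18.1% and 15.5%. CTGF, a secreted matricellular protein, stood at 2256 and 2078 FPKM in MRTFB dN dPY against 4712 and 4472 FPKM in MRTFB dN, and at 21.2 and 24.6 FPKM in MRTFB dN Y305A/dPY against 213 and 184 FPKM in MRTFB dN Y305A. The groups were far apart in both backgrounds, yet the pairs were unequal, -1.06 and -1.11 without Y305A and -3.26 and -2.85 with it, and the pooled difference of -2.07 ± 0.41 was not called (limma adjusted p = 0.083). CYR61, its close relative, stood at 1825 and 1487 FPKM in MRTFB dN dPY against 2760 and 2491 FPKM in MRTFB dN, and at 296 and 306 FPKM in MRTFB dN Y305A/dPY against 929 and 655 FPKM in MRTFB dN Y305A. It did not overlap in either background and was not called (-1.02 ± 0.19, limma adjusted p = 0.075). ANKRD1, a nuclear ankyrin repeat protein, stood at 626 and 454 FPKM in MRTFB dN dPY against 982 and 639 FPKM in MRTFB dN without overlap. It was at 0.759 and 0.836 FPKM in MRTFB dN Y305A/dPY against 3.20 and 1.11 FPKM in MRTFB dN Y305A, near the pseudocount (-0.65, limma adjusted p = 0.12). FJX1 (-1.004) and THBS1 (-0.94) were also below 0 in every pair and not called. AMOTL2 (-0.22), AXL (-0.02) and LATS2 (0.03) were not called either: AXL had pairs of 0.77 and 0.38 without Y305A and -0.72 and -0.52 with it, and F3, which encodes tissue factor, had 0.39 and 0.17 without Y305A and -1.25 and -1.14 with it.

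MRTF/SRF targets gave no call in either direction, beside 0.50% of all tested genes called lower and 0.0164% higher. At these shares a list of this size, or the smaller list of factor genes below, would seldom hold a call. Of 31 tested, 6 were below 0 and 2 above 0 in every pair, with a median of -0.10. Over all tested genes, 18.1% were below 0 and 15.5% above 0 in every pair. ACTG2, smooth muscle gamma-actin, stood at 68490 and 46017 FPKM in MRTFB dN dPY against 59843 and 36375 FPKM in MRTFB dN, where the libraries overlap, and under 1 FPKM in all 4 libraries with Y305A. ACTA2, smooth muscle alpha-actin, stood at 27858 and 16815 FPKM in MRTFB dN dPY against 52274 and 30943 FPKM in MRTFB dN without overlap, and at 9.24 and 17.7 FPKM in MRTFB dN Y305A/dPY against 12.2 and 16.5 FPKM in MRTFB dN Y305A (-0.52 ± 0.18, limma adjusted p = 0.19). The coding parts of actin genes are nearly identical, so reads of one may be assigned to another. ACTC1 (0.20), MYL9 (-0.02), the locus PAFAH1B2,SIDT2,TAGLN (-0.13), VCL (-0.16), FOS (-0.26) and EGR1 (0.15) did not pass. Like ACTG2, ACTC1 and MYL9 were under 1 FPKM in all 4 libraries with Y305A, where the pseudocount limits their differences. ACTC1 had pairs of 0.65 and 0.315 without Y305A and -0.10 and -0.08 with it. The pairs of EGR1 ran from -1.10 to 1.03. Among the genes of the factors themselves, 12 were tested and 0 were called, with SRF at 0.05, YAP1 at 0.28, TEAD1 at 0.20, MKL1 at -0.05, WWTR1 at 0.14 and VGLL1 at 1.13 (3 pairs).

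**Figure D3:**
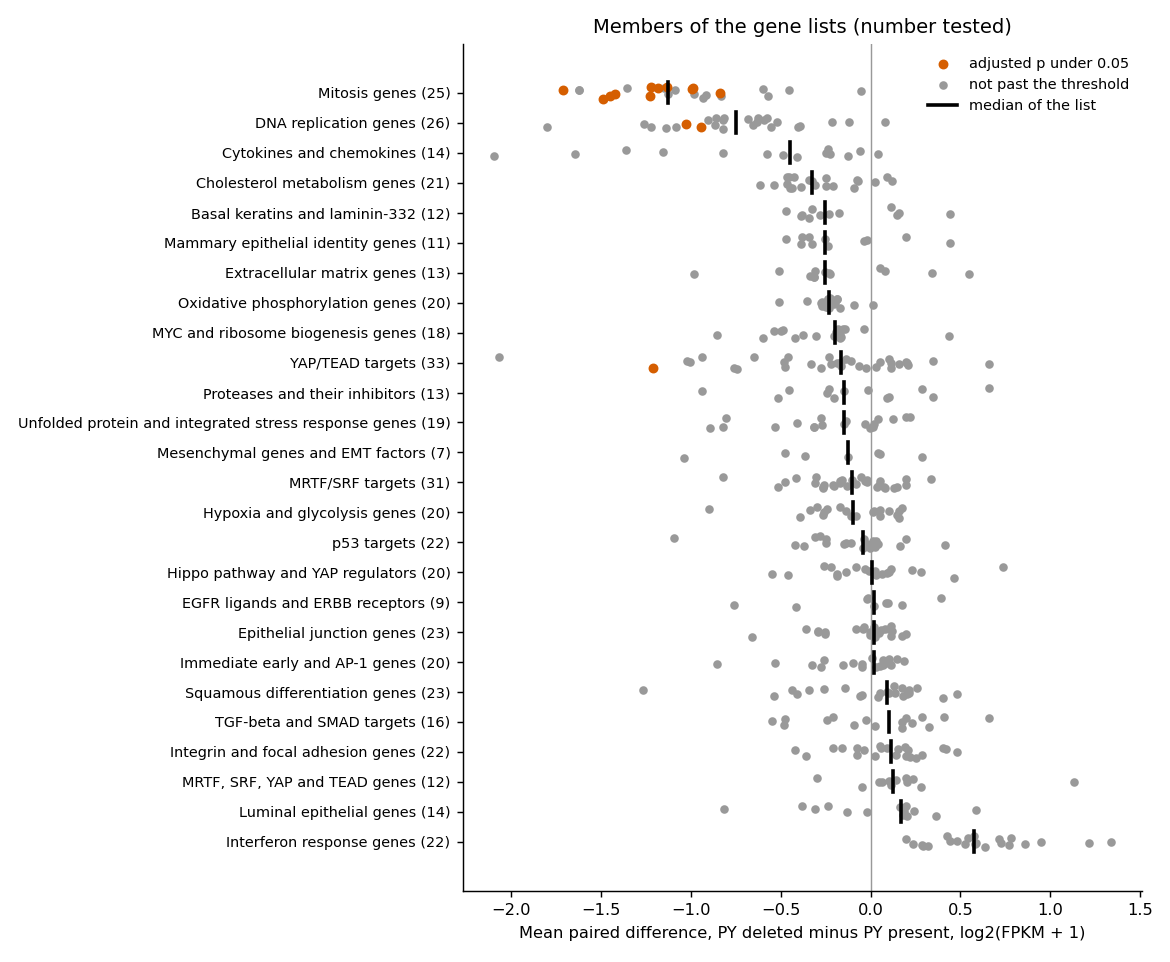
Mean paired difference in log2(FPKM + 1), PY deleted minus PY present, of each tested member of the gene lists with at least 5 tested members; orange points passed the adjusted threshold and black bars are list medians. Mitosis genes (median -1.13) and DNA replication genes (-0.75) lie furthest left, with orange points in these lists and in the YAP/TEAD targets only.

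The other lists gave 0 calls, beside 0.50% of all tested genes called lower and 0.0164% higher. Over all tested genes, 18.1% were below 0 and 15.5% above 0 in every pair. Genes of cholesterol synthesis were below 0 in every pair for 15 of 21 (median -0.33, among them FDPS at -0.62 and LSS at -0.44), subunits of oxidative phosphorylation for 14 of 20 (median -0.23), and MYC and ribosome biogenesis genes for 10 of 18 (median -0.20, MYC itself at -0.85 at the higher of its loci, 3 pairs, limma adjusted p = 0.061). Cytokines and chemokines were below 0 in every pair for 8 of 14 (median -0.45), and the list's pair medians were -0.05 and -0.26 without Y305A and -0.65 and -0.90 with it. Integrin and focal adhesion genes were above 0 in every pair for 9 of 22 (median 0.12), among them ITGB6 at 0.48 and PXN at 0.42. Interferon response genes had a median of 0.58 and pair medians of 0.71 and -0.87 without Y305A and 0.45 and 2.14 with it. Their summed level was 11990 and 640 FPKM in MRTFB dN dPY against 6630 and 3218 FPKM in MRTFB dN, and 10450 and 8339 FPKM in MRTFB dN Y305A/dPY against 6114 and 1157 FPKM in MRTFB dN Y305A, so the sums overlap without Y305A and do not with it. In the Hygro vector, which carries no MRTFB, the sum was 7479 and 201 FPKM, and 1 of the 22 genes was above 0 in every pair. The medians of the remaining lists with at least 5 tested members lay between -0.26 and 0.17, among them p53 targets (-0.04), Hippo pathway regulators (0.01), squamous differentiation (0.09) and epithelial junction genes (0.02).

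Whether the effect was alike in the 2 SRF backgrounds was examined gene by gene. The pairs of one background were more alike across genes than pairs of different backgrounds: Pearson's r was 0.374 (Spearman's rho 0.496, 10481 genes) between the pairs without Y305A and 0.496 (rho 0.564, 12191 genes) between those with Y305A. Across backgrounds r lay between 0.0746 and 0.197 and rho between 0.174 and 0.319. These coefficients are across genes, which are not independent replicates, and the pairs share no library. The 61 lower genes were called on pairs of both backgrounds, and a gene whose effect differs between backgrounds is less likely to be called there, so their effects are given as a description. Their median effect was -1.11 without Y305A and -0.97 with it, and the fall was the larger one without Y305A in 44 of them and with it in 17. The replicates differ in this. For the mitosis list, the pair medians of replicates 1 and 2 were -1.45 and -1.12 without Y305A and -0.81 and -1.19 with it. The pair of replicates 1 without Y305A holds the library of lowest relative depth, whose part in this was not tested. Within each background, in the same limma model, 147 genes were lower (1.21%) and 98 higher (0.804%) without Y305A, and 92 lower (0.755%) and 13 higher (0.107%) with it. Of the 12191 tested, 14 genes were called lower in both backgrounds alone and 0 were called higher in both. In opposite directions, 1 gene was called higher without Y305A and lower with it.

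**Figure D4:**
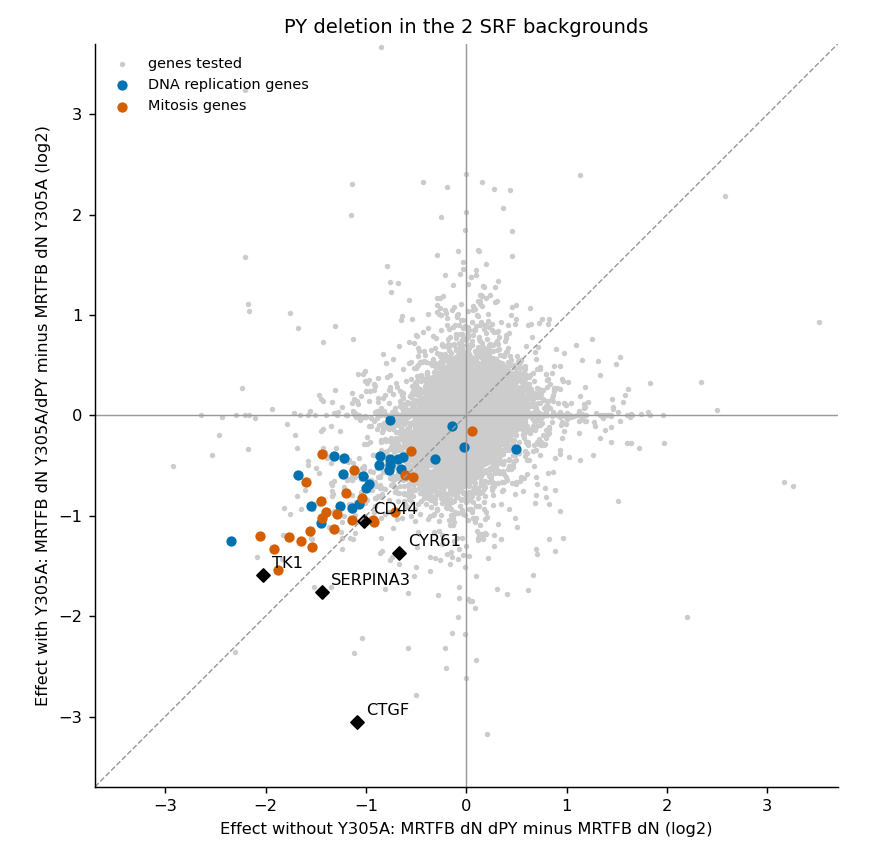
Effect of the PY deletion with Y305A (vertical axis) against that without Y305A (horizontal axis), both in log2(FPKM + 1), for the tested genes in grey, mitosis genes in orange and DNA replication genes in blue; the dashed line marks equal effects and 23 genes lie outside the axes. Mitosis genes lie mostly in the lower left, with a median effect of -1.31 without Y305A and -0.98 with it. Their pair medians for replicates 1 and 2 were -1.45 and -1.12 without Y305A and -0.81 and -1.19 with it. CTGF (-1.08 without Y305A, -3.06 with it) lies well below the dashed line.

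The interaction, the effect with Y305A minus the effect without it, was called for 33 genes: 13 above 0 (0.107%) and 20 below 0 (0.164%). Of these, 10 were under 1 FPKM in all 4 libraries with Y305A and 6 were under 1 FPKM in every library without it. For these 16 the size of the effect in that background is limited by the level. Low levels also hold the paired differences there near 0. Such pairs add little spread, so the SE and p-value of these interactions can be too small. CTGF was among those below 0, with an effect of -1.08 without Y305A and -3.06 with it (interaction -1.97 ± 0.18, limma adjusted p = 0.046). IGFL1, an insulin growth factor-like gene, stood at 43.4 and 11.8 FPKM in MRTFB dN dPY against 119 and 41.7 FPKM in MRTFB dN, where the libraries overlap, and at 74.2 and 14.5 FPKM in MRTFB dN Y305A/dPY against 1509.7 and 576 FPKM in MRTFB dN Y305A, where they do not (interaction -3.19 ± 0.31, limma adjusted p = 0.0496). JAKMIP1 stood at 11.2 and 10.8 FPKM in MRTFB dN dPY against 1.03 and 1.21 FPKM in MRTFB dN, and was under 0.1 FPKM in all 4 libraries with Y305A (-2.45 ± 0.16, limma adjusted p = 0.023). CCL20, a chemokine chosen after its values were seen, stood at 2.27 and 24.7 FPKM in MRTFB dN Y305A/dPY against 20.4 and 186 FPKM in MRTFB dN Y305A, and at 0.154 and 2.01 FPKM in MRTFB dN dPY against 0.529 and 3.54 FPKM in MRTFB dN; its libraries overlap in both backgrounds. Among other interaction calls chosen after their values were seen, the growth factor gene IGF1 had an effect of -2.16 without Y305A and TMEM45A of -1.28, and with Y305A these were 0.00 and 0.04. IGF1 was at or near 0 in all 4 libraries with Y305A, so its effect there is fixed by the low level. The prolyl hydroxylase gene P3H2 had -0.49 without Y305A and 0.79 with it. The largest interactions belong to short RNA loci, where a small number of fragments can make a high FPKM. Of these, MIR4492, MIR25, MIR554, SNORD9, SNORD88A and SNORA38 were listed at 0 in whole groups. The locus SNORD121B,UBAP2 stood at 16825 FPKM in MRTFB dN replicate 2 and between 8.86 and 13.4 FPKM in the other MRTFB libraries with a value. Its effect without Y305A rests on a single pair, as does that of MIR25. VTRNA1-3 stood at 1989 and 1142 FPKM in MRTFB dN Y305A and was listed at 0 in both MRTFB dN Y305A/dPY libraries.

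**Figure D5:**
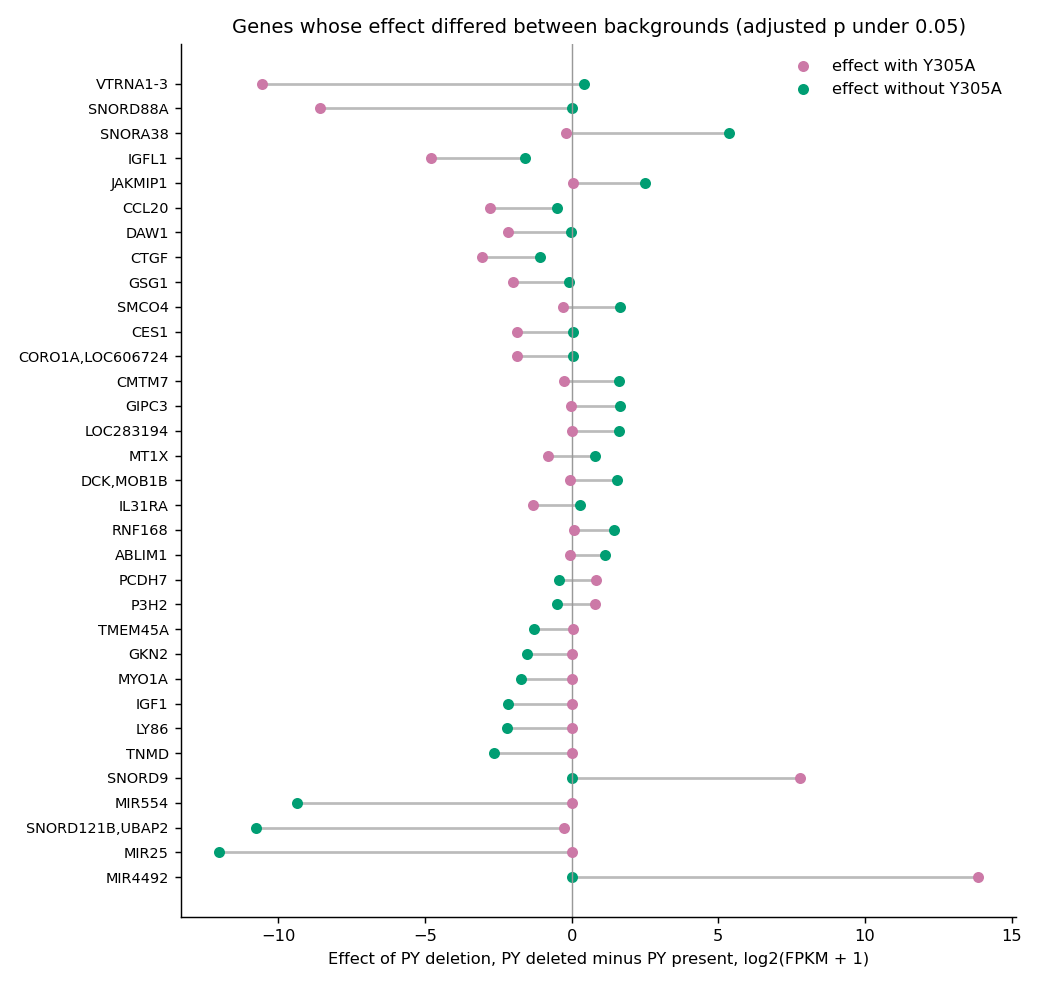
Effect of the PY deletion in log2(FPKM + 1) with Y305A (pink) and without it (green) for the 33 genes whose effect differed between backgrounds; a grey line joins both effects of a gene, and 16 of the genes were under 1 FPKM throughout a background. Short RNA loci hold the widest gaps, up to 13.86 for MIR4492, and CTGF is displaced to -3.06 with Y305A.

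The YAP 5SA and vector libraries, which had no part in the choice of the 61 genes, gave a separate view of them. Of the 61, 42 were higher in both YAP 5SA libraries than in both Hygro vector libraries and 2 were lower, whereas over all tested genes 3358 were higher (27.5%) and 3649 lower (29.9%). Set against the Puro vector, a comparison added after the data were seen, 26 of the 61 were higher in YAP 5SA and 10 lower, and over all tested genes 4069 were higher (33.4%) and 2806 lower (23.0%). The counts for the 61 thus differ between the vectors. For TOP2A the YAP 5SA libraries had 26.4 and 37.3 FPKM and the Hygro vector libraries 4.98 and 10.7 FPKM, while the Puro vector libraries, at 28.8 and 29.9 FPKM, overlap with YAP 5SA. For CENPF, a kinetochore gene, YAP 5SA had 15.1 and 15.5 FPKM against 2.79 and 4.46 FPKM in the Hygro vector, and both Puro vector libraries were higher, at 23.7 and 17.7 FPKM. For TK1 the YAP 5SA values were 30.6 and 30.9 FPKM and the Hygro vector values 6.76 and 28.1 FPKM, also without overlap. For CD44 the YAP 5SA libraries had 95.0 and 76.1 FPKM and the Hygro vector libraries 53.2 and 114 FPKM, which overlap. SERPINA3, with 4.71 and 5.42 FPKM in YAP 5SA and 437 and 109.6 FPKM in the Hygro vector, was lower in both YAP 5SA libraries.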

How the data were processed

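RNA of MCF-10A cells was sequenced as paired reads from strand-specific libraries, per the labels' protocols. The authors deposited FPKM per locus; the submitters' processing notes list Bowtie, TopHat, Cufflinks, Cuffnorm and the build hg19; versions, annotation and scaling are not given in the sources used here. The table has 34071 loci and no positions; the 6528 unnamed loci were left out. FPKM carry no counts, so no counting interval can be given.

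A named locus entered if 2 or more of the 8 MRTFB libraries reached 1 FPKM. The test was limma 3.58.1 on log2(FPKM + 1), computed from the deposited FPKM, in R 4.3.3 (pair and PY deletion as terms, empirical Bayes with intensity trend, two-sided, 3 residual degrees of freedom, 2 where a pair was missing, prior 3.23, Benjamini-Hochberg over 12191 loci); a pseudocount of 1 understates changes of low genes. A second model split the deletion effect by SRF background, which left fewer residual degrees of freedom than the first (prior 3.14). The empty part of MRTFB dN dPY replicate 1 was set to missing; other zeros were kept. Samples were paired by replicate number alone. Deviations from group means of same-numbered libraries correlated across genes at 0.342 to 0.722 in all 6 pairings of groups. Estimated relative depth was also higher in replicate 2 than in replicate 1 of each MRTFB group. It was 0.507 and 0.768 in MRTFB dN dPY, 0.582 and 0.697 in MRTFB dN, 0.807 and 1.10 in MRTFB dN Y305A/dPY, and 0.753 and 0.959 in MRTFB dN Y305A. What the correlation stems from was not tested. The fit was tested on simulated data. Tables were made with Python 3.11.15, pandas 2.3.3 and numpy 2.4.6.

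The members, gene lists and alternatives were chosen with earlier results of these data known. Genes are named by rule: the factor genes, the 12 largest called in each direction at a mean of 3 FPKM or more with the same sign in every pair (higher ones filled up with the steadiest uncalled genes), up to 4 called members of a list, 14 fixed targets and the 5 largest interactions in each direction; every other gene named, uncalled list members among them, was chosen after its values were seen. Promoters were matched by symbol to RefSeq (GRCh38.p14): 51 of the 61 lower loci and 9791 of the 12191 tested. Alternatives were another pseudocount, filter, scaling, block, set of libraries and variance model, zeros kept or dropped, the MKL2 level as a covariate, and leaving out each pair.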

Additional observations from a re-analysis of the deposited data

Results flagged for a closer look

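The effect of the PY deletion differed between the SRF backgrounds in the interaction test (limma, adjusted p under 0.05) for 33 genes, of which the 5 largest in each direction and CTGF are given here. Differences are the effect with Y305A minus the effect without it, in log2(FPKM + 1). CTGF differed by -1.97, with all 4 pairs below 0. IGFL1 differed by -3.19 and was below 0 in all 4 pairs. JAKMIP1 differed by -2.45, with a higher level in both PY-deleted libraries without Y305A and levels under 0.1 FPKM in all libraries with Y305A. The other 8 of these loci hold short RNAs, for which a small number of fragments can give a high FPKM. The difference was 13.86 for MIR4492, 12 for MIR25 (3 pairs), 10.49 for SNORD121B,UBAP2 (3 pairs), 9.35 for MIR554 and 7.77 for SNORD9. For MIR25 and SNORD121B,UBAP2 the effect without Y305A rests on a single pair, so no spread can be seen in that background. It was -11 for VTRNA1-3, -8.57 for SNORD88A and -5.57 for SNORA38. In each of these 8 except SNORD121B,UBAP2, several libraries are listed at 0, so the size of the difference depends on the pseudocount and is no bound. Where both pairs of a background differ by 0, they add no spread, and the p-value can be too small.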

How the results depend on the processing

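The counts of calls depended on the fit. Called higher and lower were 5 and 44 with a pseudocount of 0.1 (42 of the 61 lower genes among them). With no filter they were 0 and 0 (2923 at an unadjusted p under 0.05). At a mean of 3 FPKM or more they were 5 and 80 (51 of the 61). When libraries were scaled to a median ratio they were 2 and 58 (58 of the 61). Without the intensity trend they were 1 and 48 (45 of the 61). With all 14 libraries in the fit and no block they were 1 and 2 (0 of the 61). With the MKL2 level as a covariate they were 8 and 70 (35 of the 61). Keeping the zeros of the empty part gave 0 and 0 (2024 at an unadjusted p under 0.05). Without the replicate block limma called 0 higher and 0 lower. With a replicate block of 2 levels in place of the pairs it called 0 and 49 (44 of the 61). Leaving out a pair gave 0 to 1 higher and 0 to 17 lower.

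Genes at least 0.5 apart in every pair were 28 higher and 213 lower with a pseudocount of 0.1, and 12 to 67 higher and 141 to 218 lower without a pair. The interaction was called above and below 0 in 13 and 20 genes, in 5 and 7 with a pseudocount of 0.1, in 3 and 0 with no filter, in 4 and 1 without the replicate block, in 4 and 3 with the block of 2 levels, in 2 and 1 with all 14 libraries, in 4 and 0 with the zeros kept, and in 0 to 7 and 0 to 10 without a pair; below 0 it was called in 13 after scaling and in 40 without the trend. The mitosis median was -1.42 with a pseudocount of 0.1. The YAP/TEAD target median was -0.043 with the MKL2 covariate, against -0.17. The MRTF/SRF median was -0.16 with the zeros kept, -0.047 with the MKL2 covariate, and -0.14 to -0.071 without a pair. Uncalled genes near 0 changed sign: with the MKL2 covariate VGLL3 (-0.079), AMOTL2 (0.030), AXL (0.43), LATS2 (-0.043), ACTG2 (0.10), MYL9 (0.043) and EGR1 (-0.30); with a pseudocount of 0.1 ACTC1 (-0.084). Without a pair the values ran over both signs for VGLL3 (-0.095 to 0.18), AXL (-0.29 to 0.21), LATS2 (-0.15 to 0.13), MYL9 (-0.089 to 0.078), FOS (-0.43 to 0.040) and EGR1 (-0.15 to 0.56), and between -6.001 and 0 for MIR25. The causes were not tested. With 3 residual degrees of freedom and no counts, precision of low genes is unknown.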
